A study of Mus musculus with 12 samples.

Results

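Expression of 10 genes that make and conjugate bile acids was measured in mouse liver, with attention to the classic pathway (Cyp7a1 and Cyp8b1) and the alternative pathway (Cyp7b1 and Cyp39a1). The genes were chosen by name, and each was matched by 1 probe set that is annotated to no other gene, so 10 of the 19938 genes tested are described. The study used 12 Affymetrix arrays of total RNA from whole livers of 129Sv mice aged 12 weeks, all fasted for 24 h before they were killed. The 4 groups of 3 arrays were SIRT3KO mice on the high-fat diet, control mice on the high-fat diet, SIRT3KO mice on the standard diet and control mice on the standard diet. SIRT3KO mice lack SIRT3, a protein deacetylase of the mitochondrion, and the controls carried wild-type SIRT3. The high-fat diet was a Western diet with 42% fat, which the mice received from weaning. The labels give neither the sex of the mice nor the time of day of killing, nor do they say whether the knockout was made in the whole body, and replicates are taken as separate mice only because the labels number them separately. If they are not, the p-values measure the spread between arrays, which may be technical.

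Bile acids are made from cholesterol in hepatocytes. The classic pathway starts with hydroxylation of the sterol ring by CYP7A1, whereas the alternative pathway starts with oxidation of the side chain, after which CYP7B1 or CYP39A1 hydroxylates the ring of the resulting oxysterols. Both routes then share enzymes that rearrange the ring and oxidise the side chain, and the finished acids are joined to taurine or glycine before export into bile. Bile acids returning from the gut lower the expression of Cyp7a1 and Cyp8b1 through the receptor FXR.

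Of the 10 genes, 5 had an entry in the RefSeq promoter table (GRCm38.p6), namely Cyp27a1, Akr1d1, Hsd3b7, Cyp8b1 and Cyp2c70. Motifs were searched on both strands over 250 bases before and 50 bases after the annotated start. The stretches of Cyp8b1 and Cyp2c70 are shown because both hold the same binding sequence of HNF4A, a hepatocyte transcription factor, at nearly the same distance from the start. They are the 250 bases before the start, printed 5′ to 3′ along the gene's strand, with motif matches in capitals. The Cyp8b1 stretch lies at chr9:121916306-121916555 and the Cyp2c70 stretch at chr19:40187287-40187536, both on the minus strand.
Cyp8b1: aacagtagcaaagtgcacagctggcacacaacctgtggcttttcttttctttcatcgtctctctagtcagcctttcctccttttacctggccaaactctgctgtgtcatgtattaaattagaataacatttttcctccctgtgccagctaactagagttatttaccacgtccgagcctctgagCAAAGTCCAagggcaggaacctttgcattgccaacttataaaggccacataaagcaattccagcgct
Cyp2c70: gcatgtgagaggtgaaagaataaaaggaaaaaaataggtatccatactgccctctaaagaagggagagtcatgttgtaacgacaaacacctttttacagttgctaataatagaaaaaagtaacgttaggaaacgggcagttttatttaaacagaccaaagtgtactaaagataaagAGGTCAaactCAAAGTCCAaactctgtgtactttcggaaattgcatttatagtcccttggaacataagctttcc
The HNF4A sequence CAAAGTCCA begins 67 bases before the start of Cyp8b1 and 64 bases before that of Cyp2c70, and 0.475% of the 32851 promoters in the table hold it. The nuclear receptor half-site AGGTCA begins 74 bases before the start of Cyp2c70 and occurs in 16.3% of all promoters. Akr1d1 holds the half-site at 2 places on the opposite strand, which begin 232 and 210 bases before its annotated start. Its 250 bases lie at chr6:37529923-37530172, so the start used here lies inside the gene range given below. None of the 5 promoters held the NR5A2 sequence CAAGGTCA (1.56% of all promoters), the D-box TTATGTAA (0.938%), the E-box CACGTG (7.15%) or the half-site repeated in the same direction with 1 or 4 bases between (0.0396% and 0.0152%). These matches describe letters in a window and not binding.

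The values are log2 expression values made with RMA, and 1 unit is a doubling. Albumin and the other 12 measured hepatocyte markers were high on every array, with a mean over the list of 13.39 to 13.51. Identical values between pairs of arrays had a median of 11.5 probe sets within a diet and 0 between diets, and 335 probe sets lack a value on the standard-diet arrays only. The arrays of each diet were therefore taken as a separate RMA run, which the sources used here do not state. On that reading comparisons of genotype lie within runs, and diet and run cannot be told apart. Replicate 1 of the SIRT3KO standard-diet livers stood apart from its group. Measured against the mean of the standard-diet controls, its male-biased liver genes averaged -1.23 (-0.14 and -0.24 on the other 2 arrays), its female-biased genes 0.68 (-0.03 and 0.04), and its acute-phase genes 1.49 (0.11 and 0.13). Xist, which marks female cells, was at 4.31 to 4.80 on all 12 arrays. The Y-linked Eif2s3y was at 7.55 on replicate 1 of the SIRT3KO standard-diet livers and at 8.19 on replicate 2 of that group, against 8.68 to 9.14 on all other arrays. Replicate 3 of the high-fat controls had the highest Kupffer cell markers of its group (0.38 above the mean of the group). Bile duct markers averaged 0.36, 0.25 and 0.01 above the controls on the 3 SIRT3KO standard-diet arrays. Their level was low, with a mean over the list of 5.77 to 6.23 on the standard-diet arrays, below the array medians of 6.34 to 6.47. Sirt3 itself averaged 8.76 ± 0.23 in SIRT3KO and 9.19 ± 0.09 in control livers on the high-fat diet, and 8.90 ± 0.07 in SIRT3KO and 9.05 ± 0.08 in control livers on the standard diet (SD, n = 3 each), and it passed the test in neither comparison (limma adjusted p = 1.0 and 0.66). Where its probe set lies relative to the deleted part is not given in the sources used here, so these values do not check the labels.

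**Figure D1:**
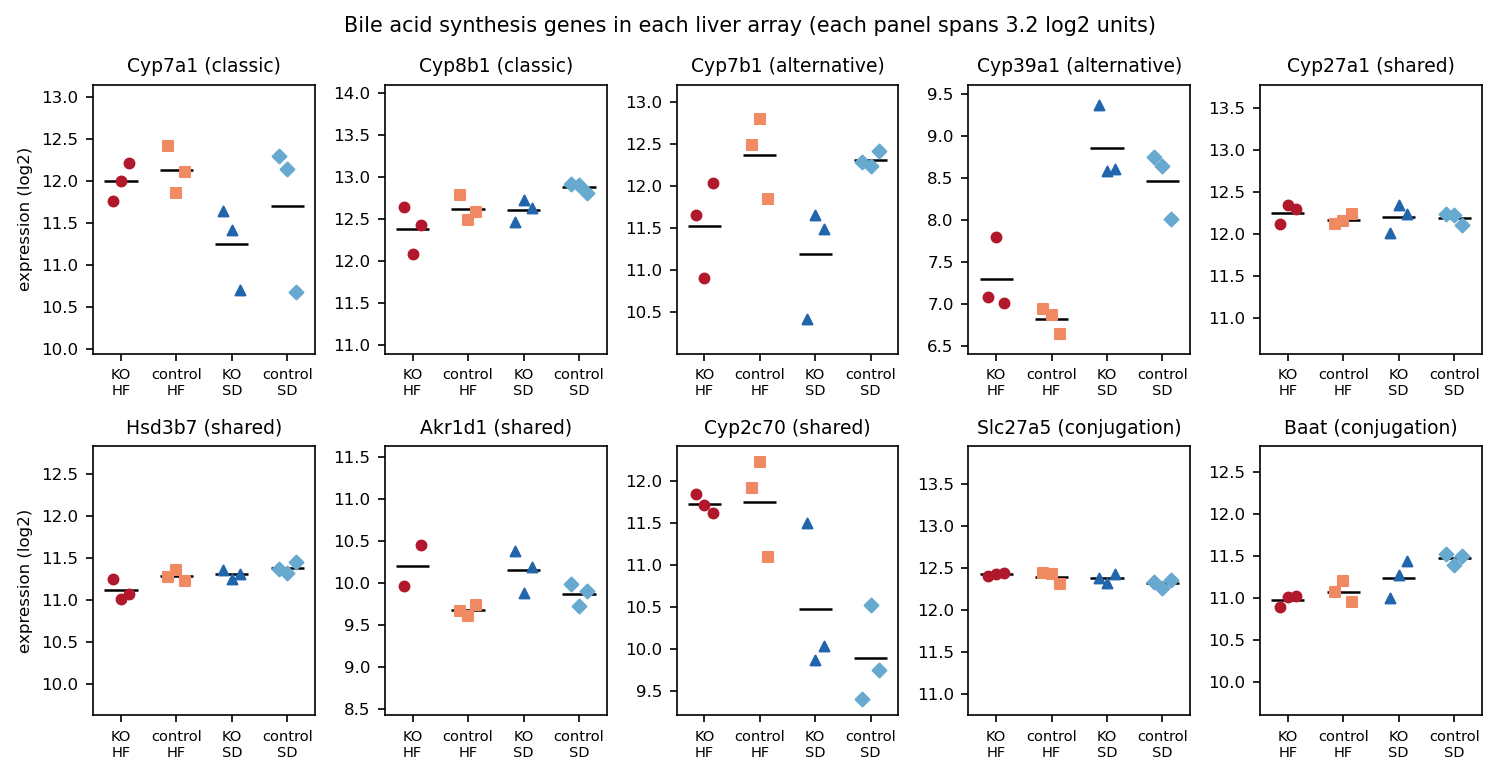
Log2 expression of the 10 genes on each array, 1 panel per gene, with SIRT3KO and control livers on the high-fat diet (HF) and then on the standard diet (SD), and a line at each group mean; every panel spans the same log2 distance but starts at its own level, so heights are not comparable between panels. Cyp39a1 and Cyp2c70 separate by diet, Cyp7b1 lies lower in most SIRT3KO livers, and Cyp27a1 and Slc27a5 are nearly flat. Akr1d1 has 2 values in the SIRT3KO high-fat group.

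Cyp7b1 encodes the oxysterol hydroxylase of the alternative pathway, which in mouse liver is known to be more abundant in males. Its probe set 10497381 represents a gene at chr3:18071944-18243890. On the high-fat diet Cyp7b1 was at 11.65, 10.90 and 12.03 in SIRT3KO livers, against 12.48, 12.79 and 11.84 in control livers. Standard-diet SIRT3KO livers had 10.42, 11.65 and 11.49, against 12.28, 12.24 and 12.41 in standard-diet controls. All 3 SIRT3KO livers lay below all 3 controls on the standard diet, while on the high-fat diet replicate 3 of each group crossed over. The difference of SIRT3KO minus control was -0.84 on the high-fat diet (SE 0.31, 95% interval -1.51 to -0.17) and -1.12 on the standard diet (SE 0.31, -1.79 to -0.45). As a mean of both diets it was -0.98 (SE 0.22), a 1.98-fold lower level in SIRT3KO livers. No threshold over all genes was reached, with limma adjusted p = 1.0 on the high-fat diet, 0.502 on the standard diet and 0.714 for the mean of both. Replicate 1 of the SIRT3KO standard-diet group, which stood apart in sex-biased and acute-phase genes, was the lowest of all arrays for Cyp7b1, and without it the standard-diet difference was -0.74 (adjusted p = 0.774). Without SIRT3KO high-fat replicate 2 the high-fat difference was -0.53. On the high-fat diet the mean log2 level of male-biased liver genes, relative to the mean of the high-fat controls, was -0.15, -0.32 and -0.08 on the SIRT3KO arrays and 0.0037, 0.30 and -0.30 on the control arrays. For the mean of both diets, 14 of the 16 measured male-biased genes had a difference below 0. Their median was -0.34, against 0.01 for all genes, and 0 were called, beside 0.0% of all genes. This mean includes SIRT3KO standard-diet replicate 1, where the list averaged -1.23. On the high-fat diet 12 of the 16 were below 0, with a median of -0.13 against -0.02. The part of these genes in the Cyp7b1 difference was not tested. In these bulk samples, fewer cells of a type and less RNA per cell cannot be told apart. Diet did not move Cyp7b1 past the test, with a high-fat minus standard difference of 0.34 (SE 0.31) in SIRT3KO and 0.06 (SE 0.31) in control livers.

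Cyp39a1 encodes the other oxysterol hydroxylase of the alternative pathway, best known for acting on the brain-derived oxysterol with a hydroxyl group on its side chain. Probe set 10445308 represents the gene at chr17:43667372-43751431. On the high-fat diet it stood at 7.08, 7.80 and 7.01 in SIRT3KO livers and at 6.94, 6.87 and 6.65 in control livers. On the standard diet they were 9.38, 8.58 and 8.62 in SIRT3KO livers and 8.75, 8.65 and 8.02 in control livers. Every high-fat array lay below every standard-diet array, in both genotypes. Cyp39a1 fell on the high-fat diet by 1.56 on the log2 scale in SIRT3KO livers (SE 0.24, limma adjusted p = 0.00324) and by 1.65 in control livers (SE 0.24, adjusted p = 0.00232), which is 2.95-fold and 3.14-fold lower. Both calls held when any single array was left out. The difference between genotypes went the other way from that of Cyp7b1, with SIRT3KO minus control at 0.47 (SE 0.24) on the high-fat diet and 0.39 (SE 0.24) on the standard diet, and it did not reach the threshold (adjusted p = 1.0 and 0.594). The high-fat groups did not overlap, though the lowest SIRT3KO value (7.01) and the highest control value (6.94) were close. The high-fat control values lay near 6.71, the median of the group means of all genes. Both the fall in control livers and the high-fat genotype difference thus rest partly on values at that modest level. Without the array that stood apart, the standard-diet difference was 0.13, and without SIRT3KO high-fat replicate 2 the high-fat difference was 0.22.

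Cyp7a1 encodes the rate-limiting enzyme of the classic pathway, and its RNA is known to vary over the day in rodents. The gene lies at chr4:6265612-6275632 and is read by probe set 10511375. Its values were 11.77, 12.00 and 12.22 in SIRT3KO livers on the high-fat diet, against 12.42, 11.86 and 12.11 in control livers. With the standard diet they were 11.64, 11.42 and 10.71 in SIRT3KO livers, against 12.30, 12.14 and 10.68 in control livers. Replicate 3 was the lowest array of each standard-diet group by a wide margin, and the genotypes overlapped on both diets. The genotype difference was -0.14 (SE 0.33) on the high-fat diet and -0.45 (SE 0.33, 95% interval -1.16 to 0.26) on the standard diet. The standard-diet value was -0.96 without control replicate 3, -0.15 without control replicate 1 and -0.18 without SIRT3KO replicate 3. The high-fat diet was associated with a difference of 0.74 in SIRT3KO livers (SE 0.33, adjusted p = 0.212), where the groups did not overlap, and of 0.43 in control livers (SE 0.33, adjusted p = 0.48). None of these passed the test, and the difference in control livers was -0.09 without control standard-diet replicate 3.

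Cyp8b1 encodes the hydroxylase that directs synthesis toward cholic acid. It lies at chr9:121914356-121916305, behind the promoter shown above, and was read by probe set 10597875. SIRT3KO livers on the high-fat diet had 12.64, 12.08 and 12.43, against 12.78, 12.49 and 12.58 in high-fat controls. SIRT3KO livers on the standard diet had 12.46, 12.73 and 12.63, against 12.92, 12.90 and 12.81 in standard-diet controls. All 3 standard-diet SIRT3KO values lay below the controls, by small distances, and the high-fat groups overlapped. The genotype differences were -0.23 on the high-fat diet and -0.27 on the standard diet (SE 0.12 each), and their mean was -0.25 (SE 0.09, limma adjusted p = 0.739). Without SIRT3KO high-fat replicate 2, the lowest array, the high-fat genotype difference was -0.08 and the diet difference in SIRT3KO livers -0.07. On the high-fat diet Cyp8b1 differed from the standard diet by -0.22 in SIRT3KO and -0.26 in control livers (SE 0.12 each, adjusted p = 0.316 and 0.222). The mean of both, -0.24, had an adjusted p of 0.068 and was not called. It passed the threshold without SIRT3KO standard-diet replicate 1 (adjusted p = 0.0452), without SIRT3KO high-fat replicate 1 (0.0194), with array weights (0.0267) and with median centring (0.0318), whereas without SIRT3KO high-fat replicate 2 its adjusted p was 0.152. In control livers the 2 diets did not overlap for this gene.

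The shared steps gave 1 gene that changed and 3 that did not pass the test in any comparison. Cyp2c70 (probe set 10467410, chr19:40153361-40187286) encodes the enzyme that makes the muricholic acids of mice. Its high-fat values were 11.85, 11.71 and 11.62 in SIRT3KO livers, against 11.92, 12.23 and 11.10 in control livers. The standard-diet values were 11.50, 9.87 and 10.04 in SIRT3KO livers, against 9.40, 10.52 and 9.75 in control livers. All high-fat arrays of a genotype lay above all its standard-diet arrays, but SIRT3KO standard-diet replicate 1 stood more than a unit above the other 2 of its group. Cyp2c70 rose on the high-fat diet in control livers, by 1.86 (SE 0.38, limma adjusted p = 0.0123), which is 3.63-fold. The call was narrowly lost without control high-fat replicate 1, control standard-diet replicate 1 or control standard-diet replicate 3 (adjusted p = 0.0538, 0.0553 and 0.051, in that order), and with robust moderation of the variances on all arrays (adjusted p = 0.0609). In SIRT3KO livers the difference was 1.26 (SE 0.38, adjusted p = 0.0667), and without replicate 1 of the standard-diet group it was 1.77 (adjusted p = 0.00861). The same array set the genotype difference on the standard diet, which was 0.58 (SE 0.38) with it and 0.07 without it. On the high-fat diet that difference was -0.02.

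Akr1d1 (probe set 10537306, chr6:37529978-37574921) encodes the reductase that bends the sterol ring into the bile acid form. It has no value for replicate 2 of the SIRT3KO high-fat livers, and the fit used the other 2 arrays of that group. On the high-fat diet it was at 9.96 and 10.45 in SIRT3KO livers, against 9.67, 9.62 and 9.74 in control livers. Standard-diet values were 10.38, 9.89 and 10.20 in SIRT3KO livers, against 9.99, 9.74 and 9.91 in control livers. Both measured SIRT3KO livers lay above the controls on the high-fat diet, and the standard-diet groups overlapped. The difference of SIRT3KO minus control was 0.53 (SE 0.15, 95% interval 0.20 to 0.86) on the high-fat diet and 0.28 (SE 0.14) on the standard diet, and the mean of both was 0.40 (SE 0.10). Adjusted over all genes with limma, p was 1.0, 0.532 and 0.739. Without replicate 3, which leaves 1 SIRT3KO array, the high-fat difference was 0.29, and without replicate 1 of the SIRT3KO standard-diet livers, the array that stood apart, the standard-diet difference was 0.16. Diet differences were 0.05 in SIRT3KO and -0.20 in control livers.

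Cyp27a1 (probe set 10347481, chr1:74713148-74737897) encodes the mitochondrial side-chain hydroxylase that opens the alternative pathway and also serves the classic one. Hsd3b7 (probe set 10557782, chr7:127800609-127803802) encodes the dehydrogenase that oxidises the sterol ring after the first hydroxylation. Cyp27a1 ranged over only 0.33 across the 12 arrays, and its genotype and diet differences lay between -0.02 and 0.09 (SE 0.09). Hsd3b7 read 11.25, 11.02 and 11.08 in SIRT3KO livers on the high-fat diet, against 11.28, 11.36 and 11.23 in control livers. On the standard diet it read 11.36, 11.25 and 11.31 in SIRT3KO livers and 11.37, 11.33 and 11.45 in control livers. The SIRT3KO high-fat livers were the lowest group, with a difference from high-fat controls of -0.18 (SE 0.08, adjusted p = 1.0) and from standard-diet SIRT3KO livers of -0.19 (SE 0.08, adjusted p = 0.174).

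Conjugation is carried out by the ligase SLC27A5, which activates bile acids with coenzyme A, and by BAAT, which transfers them to the amino acid. Slc27a5 (probe set 10560045, chr7:12988346-12998192) ranged over 0.18 across all arrays, the smallest range of the 10 genes, and its 4 pairwise differences lay between 0.03 and 0.07 (SE 0.07). Baat (probe set 10512895, chr4:49489416-49507915) was at 10.90, 11.01 and 11.03 in SIRT3KO livers on the high-fat diet and at 11.07, 11.20 and 10.95 in control livers. On the standard diet it was at 11.00, 11.27 and 11.44 in SIRT3KO livers and at 11.52, 11.40 and 11.50 in control livers. Baat fell on the high-fat diet in control livers, by 0.40 (SE 0.10, limma adjusted p = 0.0389), with no overlap between the diets. This call was lost when replicate 1 or 3 of the high-fat controls, any standard-diet control or SIRT3KO high-fat replicate 2 was left out (adjusted p = 0.0536 to 0.116), and held without each of the other 6 arrays. With all arrays kept it was also lost when only genes at or above the median level were tested (adjusted p = 0.0536) and when all probe sets were tested (0.0665). In SIRT3KO livers the difference was -0.26 (SE 0.10, adjusted p = 0.171). SIRT3KO minus control was -0.09 on the high-fat diet and -0.24 (SE 0.10, adjusted p = 0.503) on the standard diet, and without SIRT3KO standard-diet replicate 1, the lowest array of that diet, the standard-diet difference was -0.12.

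Between genotypes, 0 of the 10 genes were called at an adjusted p under 0.05 on the high-fat diet, where 0.0% of all genes were called, and 0 on the standard diet, where 0.00502% were called, which is 1 gene. The mean of both diets likewise gave 0 of 10, beside 0.0% of all genes. At an unadjusted p under 0.05 (limma), 3 of 10 stood out on the high-fat diet (Akr1d1 higher in SIRT3KO, Cyp7b1 and Hsd3b7 lower), beside 2.86% of all genes, and this count was 1 without SIRT3KO replicate 2. On the standard diet 3 of 10 did (Cyp7b1, Cyp8b1 and Baat, all lower), beside 9.73% of all genes and 2.61% lower, and this count was 1 without SIRT3KO replicate 1 or without control replicate 1. For the mean of both diets the count was 6 of 10, beside 6.64% of all genes. Of these, 2 were higher in SIRT3KO livers (Cyp39a1 and Akr1d1), beside 3.99% of all genes, and 4 lower (Cyp7b1, Cyp8b1, Hsd3b7 and Baat), beside 2.65%, and the count of 6 was 3 without SIRT3KO high-fat replicate 2. Groups did not overlap for 2 of 10 on the high-fat diet (Cyp39a1 and Akr1d1), beside 6.69% of all genes, and for 2 of 10 on the standard diet (Cyp7b1 and Cyp8b1), beside 14.4%. Akr1d1 had only 2 SIRT3KO values on the high-fat diet, so it could lack overlap more easily than genes with 3. The median difference of the 10 genes was -0.06 on the high-fat diet and -0.03 on the standard diet, against -0.02 and 0.04 for all genes. By pathway, both classic genes and Cyp7b1 had differences below 0 on both diets, and Cyp39a1 had differences above 0 on both, with the exception that Cyp7a1 was at 0.01 on the high-fat diet without control replicate 1.

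**Figure D2:**
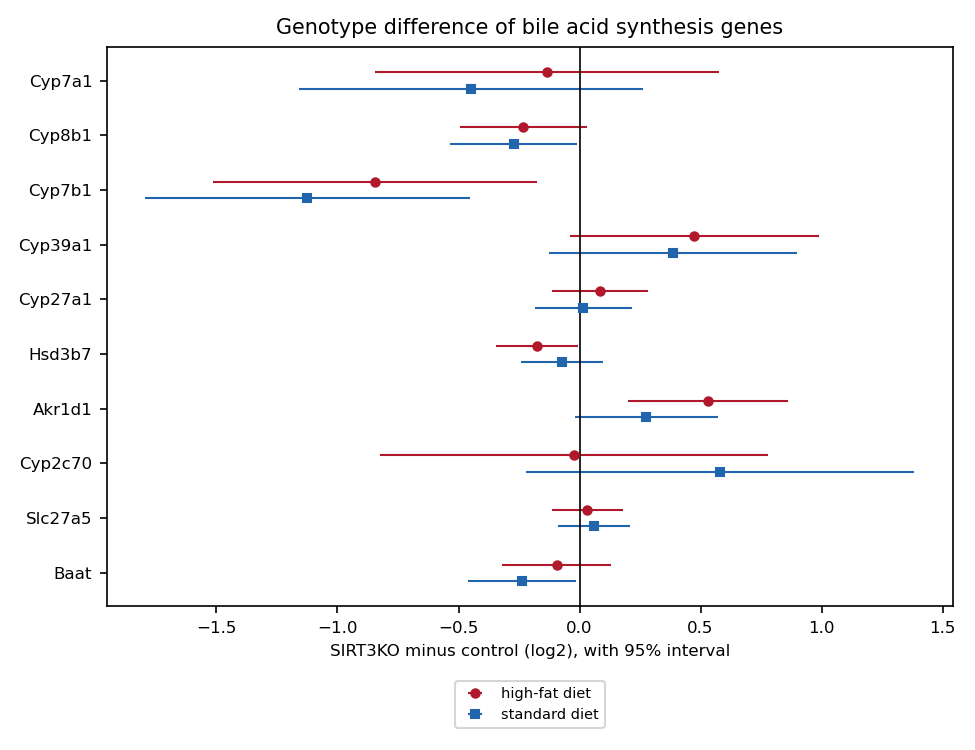
Differences of SIRT3KO minus control on the log2 scale for the 10 genes, with 95% intervals from the limma fit, for the high-fat diet (circles) and the standard diet (squares). Cyp7b1 lies lowest on both diets, at -0.84 and -1.12, and Cyp39a1 and Akr1d1 lie above 0 on both; none passed the adjusted threshold.

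Between diets, 1 of 10 genes was called in SIRT3KO livers (Cyp39a1, lower on the high-fat diet), beside 5.11% of all genes, with 2.66% lower. In control livers 3 of 10 were called (Cyp2c70 higher, Cyp39a1 and Baat lower), beside 5.99% of all genes, with 4.3% higher and 1.69% lower. Over the mean of both genotypes the same 3 genes were called, beside 18.0% of all genes (10.3% higher and 7.69% lower). The differences were -1.61 for Cyp39a1 (SE 0.17, limma adjusted p = 6.2e-05), 1.56 for Cyp2c70 (SE 0.27, adjusted p = 0.00152) and -0.33 for Baat (SE 0.07, adjusted p = 0.00809). Diets did not overlap for 4 of 10 genes in SIRT3KO livers, beside 23.8% of all genes, and for 4 of 10 in control livers, beside 30.3%. Cyp39a1 and Cyp2c70 were without overlap, in the same direction, within each genotype, as was so for 11.4% of all genes. Because the diets were taken as separate runs, the differences were set beside those of 1233 chemosensory receptor genes, which serve smell and taste. The middle 95% of these ran from -0.56 to 0.47 in SIRT3KO and from -0.46 to 0.59 in control livers, and 7.62% and 11.3% of them were called. The differences of Cyp39a1 and Cyp2c70 lay outside these ranges in both genotypes, those of Baat lay inside, and Cyp7a1 lay outside in SIRT3KO livers, without passing the test. When a variance for the offset between runs, estimated from the chemosensory genes, was added to the limma test, 0 of the 10 genes were called in either genotype or in their mean. The adjusted p was 0.0573 for Cyp39a1 and 0.265 for Cyp2c70 in the mean of both genotypes. The chemosensory genes were chosen by name and not matched in level to the 10 genes. All of the 10 but Cyp39a1 lay above at least 94.1% of all genes, and the offset may differ at their level. Circadian clock genes also differed between the diets, with a median over 16 genes of 0.58 in SIRT3KO and 0.55 in control livers, and 8 and 6 of them called. Their part in the diet differences of the bile acid genes was not tested.

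**Figure D3:**
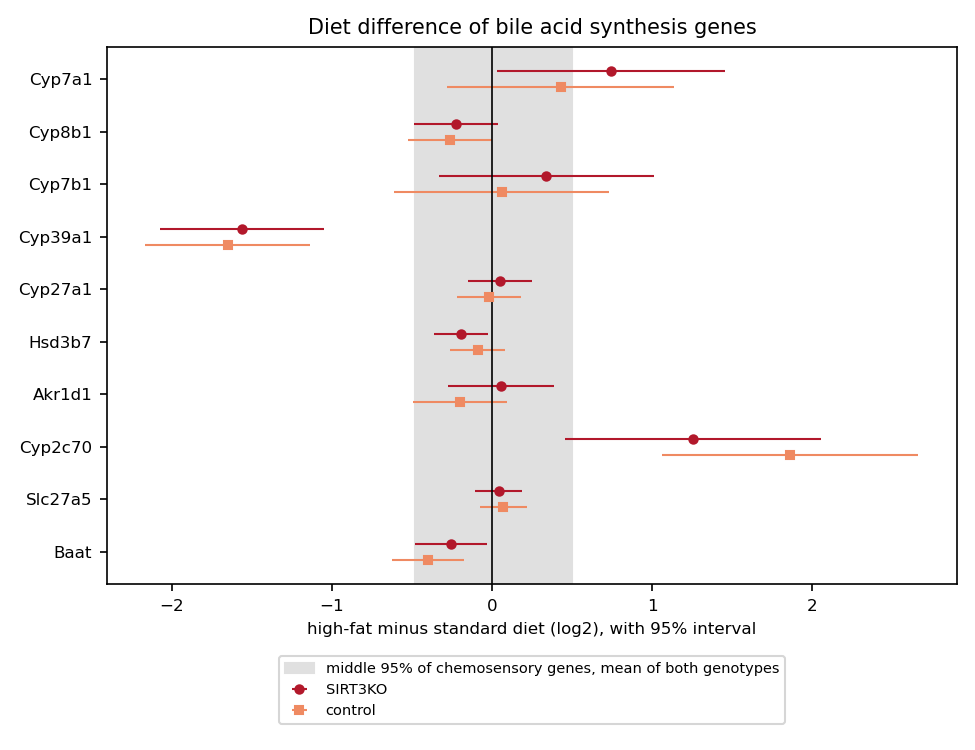
Differences of high-fat minus standard diet on the log2 scale for the 10 genes, with 95% intervals from the limma fit, in SIRT3KO (circles) and control livers (squares); the grey band is the middle 95% of the mean difference of 1233 chemosensory genes. Cyp39a1 and Cyp2c70 lie outside the band in both genotypes, as does Cyp7a1 in SIRT3KO livers (0.74), and the other genes' values lie inside it.

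The diet difference did not depend on genotype beyond the error for any of the 10 genes. The interaction was called for 0 of 10, beside 0.0% of all genes, and 0 of 10 reached an unadjusted p under 0.05, beside 4.73%. The adjusted p-values were 0.945 to 0.986 (limma). Cyp2c70 had the largest interaction, at -0.61 (SE 0.53, 95% interval -1.74 to 0.53), and it was -0.09 without SIRT3KO standard-diet replicate 1. For Cyp7b1 it was 0.28 (95% interval -0.67 to 1.23) and for Cyp39a1 0.09 (-0.64 to 0.81). Since these intervals extend on both sides of 0, a like response in both genotypes is not shown.

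Genes that surround the pathway were taken from lists chosen with earlier results of these data known. For the genotype comparisons and the interaction, 0 of 12 other bile acid enzymes, 0 of 20 regulators and 0 of 17 transporters were called. Of all genes, 0.00502% were called on the standard diet, which is 1 gene, and 0.0% in each of the others. At an unadjusted p under 0.05 (limma), SIRT3KO livers on the high-fat diet had 1 enzyme higher and 1 transporter lower. On the standard diet they had 1 enzyme, 1 regulator and 1 transporter higher, and 2 enzymes and 4 transporters lower. Of all genes 2.86% reached that p on the high-fat diet, and 9.73% on the standard diet, with 2.61% lower. For the mean of both diets, 2 enzymes were lower, and 1 transporter was higher and 3 lower, beside 6.64% of all genes. The interaction reached that p for 1 enzyme, beside 4.73% of all genes. The FXR gene Nr1h4 differed by -0.04 (SE 0.13) on the high-fat diet and by -0.24 (SE 0.13) on the standard diet. Nr0b2 encodes SHP, the repressor through which FXR acts on Cyp7a1. It was at 8.14, 9.10 and 8.80 in SIRT3KO livers on the high-fat diet, against 7.55, 9.25 and 8.99 in control livers. On the standard diet it was at 9.21, 9.05 and 8.74 in SIRT3KO livers, against 8.13, 7.74 and 9.21 in control livers. Among the controls, the array highest for Nr0b2 was the lowest for Cyp7a1, namely replicate 3 on the standard and replicate 2 on the high-fat diet. In SIRT3KO livers the array lowest for Nr0b2 was also the lowest for Cyp7a1, namely replicate 3 on the standard and replicate 1 on the high-fat diet. A relation between the 2 genes was not tested. The Nr0b2 genotype difference of 0.64 (SE 0.40) on the standard diet did not pass the test. Fgfr4, the liver receptor of the bile acid hormone from the gut, and its partner Klb differed by -0.09 and -0.06 on the high-fat diet and by 0.07 and -0.06 on the standard diet.

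By diet, these lists gave a few calls each, where 5.11% of all genes were called in SIRT3KO and 5.99% in control livers. In SIRT3KO livers 1 of 12 enzymes rose, the bile acid sulfotransferase Sult2a8 (0.87, SE 0.22, adjusted p = 0.0331), and 1 fell, the peroxisomal thioesterase Acot8 (-0.41, SE 0.09, adjusted p = 0.0235). The Sult2a8 call rested on the standard-diet SIRT3KO group, which had 10.58, 10.84 and 11.84, while the other 9 arrays lay between 11.87 and 12.09. In control livers 1 enzyme rose, Cyp2a12 (0.32, SE 0.08, adjusted p = 0.0403), which rehydroxylates bile acids that bacteria have altered. Of 20 regulators, 1 fell in SIRT3KO livers, Insig2 (-0.79, SE 0.17, adjusted p = 0.0188), which restrains sterol synthesis, and 0 were called in control livers, where 4 had an unadjusted p under 0.05. Of 17 transporters, 3 rose in each genotype, and the sterol export pair Abcg5 and Abcg8 was called in both. Abcg5 rose by 1.00 in SIRT3KO (adjusted p = 0.00169) and by 0.92 in control livers (adjusted p = 0.00289), and Abcg8 by 0.78 and 0.58. Slco1a4, an uptake carrier, fell by 1.17 in control livers (adjusted p = 0.00968). All of these comparisons carry the same overlap of diet and presumed run.

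Across the arrays, values minus the mean of their diet were compared between pairs of the 10 genes. Arrays share their RNA sample and normalization, and the values still hold the genotype difference, so the correlations are descriptions. Cyp7b1 went with Baat (Pearson r = 0.81, Spearman rho = 0.82, n = 12) and with Cyp8b1 (r = 0.78, rho = 0.57), and against Cyp39a1 (r = -0.78, rho = -0.59). The relation to Baat was 0.67 without SIRT3KO standard-diet replicate 1 and 0.79 without the 2 arrays farthest from the median of Cyp7b1. The relation to Cyp39a1 was -0.66 and -0.25 under the same omissions, and that to Cyp8b1 was 0.71 and 0.37, so both rest largely on SIRT3KO standard-diet replicate 1 and SIRT3KO high-fat replicate 2, the lowest Cyp7b1 arrays of their diets. With the group means removed, r was 0.69 for Baat, 0.56 for Cyp8b1 and -0.67 for Cyp39a1. Cyp27a1 and Hsd3b7 went against each other within their narrow ranges (r = -0.75, and -0.87 without the 2 farthest arrays). Cyp7a1 showed little relation to Cyp7b1 (r = 0.11) or Cyp8b1 (r = 0.29).

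**Figure D4:**
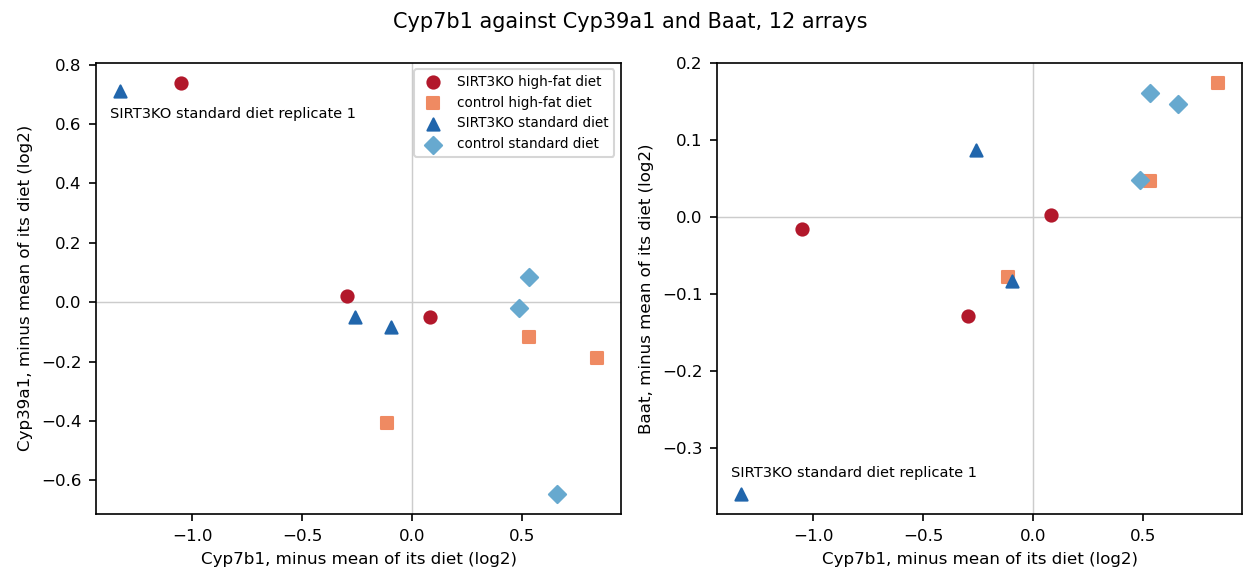
Values of Cyp7b1 (horizontal) against Cyp39a1 (left) and Baat (right) on the 12 arrays, each minus the mean of its diet, on the log2 scale, with symbols for the 4 groups. SIRT3KO standard-diet replicate 1 and SIRT3KO high-fat replicate 2 lie far left and high in the left panel, and in the right panel SIRT3KO standard-diet replicate 1 is lowest for both genes.

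The genes whose within-diet pattern was most like each member were found among 9657 genes over 12 arrays (11 for Akr1d1). Since the highest r were picked on these same arrays, high values follow in part from the picking. Cyp39a1 was closest to the metallothionein genes Mt2 (r = 0.94) and Mt1 (r = 0.90), both also in the acute-phase list, and to Vldlr (r = 0.85). Spearman rho was lower, at 0.69, 0.68 and 0.36 in that order. Mt2 was at 12.68 in SIRT3KO standard-diet replicate 1, against 9.69 to 10.86 on the other 5 standard-diet arrays, and Cyp39a1 was likewise highest there. Without that array r with Mt2 was 0.93, and without it and SIRT3KO high-fat replicate 2 it was 0.86, whereas r with Vldlr was 0.24. Cyp7b1 was closest to Hps4, Scamp1 and C6 (r = 0.95 each), of which C6 is in the male-biased list, and r with C6 was 0.92 without the array that stood apart. Baat was closest to Abcg2, Cops5 and Pcgf6 (r = 0.97 each). For Cyp7a1 the genes were Clec18a (r = 0.90), Kcnk3 (0.85) and Msto1 (0.84). For Cyp8b1 they were Ackr2 (0.91), Reps1 (0.88) and Fbxo21 (0.87). Cyp2c70 was closest to Inhba, Dusp1 and Qsox1 (0.92 each), all of them highest in SIRT3KO standard-diet replicate 1 within its diet. Akr1d1 was closest to Pgm1 (0.95), Pdcl3 (0.94) and Mid1ip1 (0.90), Cyp27a1 to Furin (0.90), Aldh1a7 (0.88) and Dbt (0.87), Hsd3b7 to Fbxo6 and Dsp (0.89 each) and Maged1 (0.85), and Slc27a5 to Amy1 (0.91), Rgn and Otud7b (0.88 each).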

How the data were processed

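Mouse liver RNA was hybridised to 12 Affymetrix arrays, 1 column of values per array. Per the submitters' processing notes the authors used Affymetrix Expression Console and RMA, and they deposited the resulting log2 expression values; the version, options and genome build are not given in the sources used here. RMA corrects background, brings the arrays of a run to a common distribution and summarises the probes of each set. Array medians were 6.34 to 6.47, and no further normalization was applied. The number of arrays limits the precision.

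Of 35557 probe sets, 21789 had 1 gene symbol, 1621 several, and 12147 were not listed in the annotation used; 21698 single-gene sets matched RefSeq (GRCm38.p6). For the 999 genes with several sets the one with the highest mean was kept, which left 19938 genes. Gene positions are those of RefSeq, and which exons a probe set covers was not analysed here.

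limma 3.58.1 in R 4.3.3 fitted 1 mean per group to all 12 arrays (eBayes with an intensity trend), with Benjamini-Hochberg adjustment over all 19938 genes, and a gene was called at an adjusted p under 0.05. The fit was tested on simulated data. Intervals cover 95%. Figures and counts used Python 3.11.15. The genes, the lists and the tests were chosen with earlier results of these data known. All 10 genes are named, together with Sirt3. From the other enzymes, regulators and transporters at most 4 called genes per comparison are named, plus Nr0b2, Nr1h4, Fgfr4 and Klb. For likeness the 3 genes with the highest Pearson r are named. Alternatives covered normalization, moderation, filters, array weights, left-out arrays, the replicate number as a block and a variance for the offset between runs.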

Additional observations from a re-analysis of the deposited data

How the results depend on the processing

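With 3 arrays a group, the median standard error of a difference over all genes was 0.11, or 0.16 for the interaction. Some of the bile acid genes had larger errors, such as 0.38 for Cyp2c70 and 0.31 for Cyp7b1 in the genotype differences. Differences of several standard errors could still miss the threshold, as for Cyp7b1 on the standard diet (-1.12, limma adjusted p = 0.502). In the genotype comparisons and the interaction the number of bile acid genes called by limma was 0 under every alternative run, and leaving out single arrays gave 0 to 0. Of all genes, leaving out single arrays called 0 to 6 on the standard diet and 0 to 1 on the high-fat diet. It called 0 to 2 for the mean of both diets and 0 to 1 for the interaction. Bile acid genes called between diets numbered 3 in control livers (1 to 3 without single arrays), 1 in SIRT3KO livers (1 to 2) and 3 for the mean of both genotypes (3 to 5). The variance for the offset between runs gave 0 in all 3, where it called 7 of all genes in control livers, 5 in SIRT3KO livers and 9 for the mean. Array weights gave 2 in SIRT3KO livers (Cyp39a1 and Hsd3b7) and 5 for the mean, a threshold of 0.1 gave 2 in SIRT3KO livers (Cyp39a1 and Cyp2c70) and 5 for the mean, and leaving out SIRT3KO standard-diet replicate 1 and control high-fat replicate 3 together gave 3 in SIRT3KO livers. Over all genes, leaving out single arrays gave 389 to 1322 calls in control livers, 360 to 1286 in SIRT3KO livers and 2644 to 3519 for the mean, against 1194, 1018 and 3582 with all arrays. Array weights gave 2016 in SIRT3KO livers and 5264 for the mean, and a threshold of 0.1 gave 1926 and 5096. Leaving out both arrays together gave 625 in SIRT3KO livers. A looser threshold passes more genes by construction. The cause of the other changes was not tested, and leaving out a single array lowered some of these counts and raised others. Counts at an unadjusted p under 0.05 (limma) were added after the data were seen. On the high-fat diet the genotype comparison gave 3 bile acid genes (571 of all genes). That was 6 with array weights (2449 of all genes) and 1 to 4 without single arrays (398 to 1156). On the standard diet it gave 3 (1939 of all genes). That was 5 with array weights (3026), 1 without the intensity trend (1947) and 1 without both arrays (1364). Without single arrays it was 1 to 4 (980 to 3888). For the mean of both diets it gave 6 (1323 of all genes), and 3 to 6 without single arrays (879 to 2620).

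Among 70 differences of single genes, 1710 values under alternatives were compared: 1628 kept their direction and side of the threshold, 19 lost a call, 10 gained one and 53 changed sign. Many alternatives could not change the direction, because they left the difference itself as it was. These changed only the moderation, the filter, the added variance or an array outside the comparison. The count of 1628 is therefore not a measure of stability. None of the 22 differences that changed sign was called, and none was above 0.43 in size. Median centring turned Cyp27a1 between genotypes on the standard diet (-0.0565) and between diets in the mean (-0.0221), Cyp7b1 (-0.0185) and Slc27a5 (-0.0086) between diets in control livers, and Slc27a5 between genotypes on the standard diet (-0.0128) and in the interaction (0.0521). Array weights turned Cyp27a1 between genotypes on the standard diet (-0.0144) and the interaction of Cyp8b1 (-0.17). Cyclic loess turned Cyp27a1 between diets in control livers (0.0592) and the interaction of Cyp8b1 (-0.004). Quantile normalization turned Cyp27a1 (0.0441) and Hsd3b7 (0.0013) between diets in control livers. Leaving out both arrays turned Cyp7b1 (-0.0432) and Cyp27a1 (-0.0415) between diets in SIRT3KO livers, Cyp27a1 between diets in the mean (-0.0469), Slc27a5 (-0.0111) between genotypes on the high-fat diet, Cyp2c70 (-0.14) between genotypes in the mean, and the interactions of Cyp7b1 (-0.37), Cyp8b1 (-0.054) and Baat (-0.0402). Without single arrays, signs changed between genotypes for Cyp27a1 on the standard diet (-0.0545 to 0.11) and, on the high-fat diet, for Cyp7a1 (-0.27 to 0.0099), Cyp2c70 (-0.35 to 0.22) and Slc27a5 (-0.0111 to 0.0554). Between diets they changed in control livers for Cyp7a1 (-0.0857 to 0.72), Cyp7b1 (-0.15 to 0.33) and Cyp27a1 (-0.0598 to 0.0103). In SIRT3KO livers they changed for Cyp7b1 (-0.0432 to 0.65), Cyp27a1 (-0.0415 to 0.12) and Akr1d1 (-0.19 to 0.30), and in the mean for Cyp27a1 (-0.0297 to 0.0519) and Akr1d1 (-0.19 to 0.0502). For the interaction they changed for Cyp7b1 (-0.10 to 0.59), Cyp8b1 (-0.0877 to 0.19), Cyp27a1 (-0.0236 to 0.14), Cyp39a1 (-0.16 to 0.35) and Slc27a5 (-0.0706 to 0.001).

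Same-numbered arrays of different groups had correlations of their deviations from -0.27 to 0.41, and the labels name no shared litter or day, so the numbers were not taken as a pairing. With the replicate block, 3, 1 and 3 bile acid genes were called between diets in control livers, SIRT3KO livers and the mean, as without it, and the difference of Akr1d1 between diets in SIRT3KO livers was -0.0238. Another probe set of each gene could not be tried, because each has 1.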
